A study of Homo sapiens with 18 samples.

Results

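This account covers 10 genes of the matrix metalloproteinase and plasminogen systems in MCF10A cells, an established non-malignant human breast epithelial line. The genes were MMP1, MMP3, MMP9, MMP10, MMP13, MMP14, TIMP1, TIMP2, PLAU and PLAUR. They were taken by symbol from the 60662 genes of the deposited count table, and all 10 were found. Messenger RNA was sequenced from cells plated sparsely on compliant polyacrylamide gels coated with Matrigel, a basement membrane extract rich in laminin. All 6 groups received the same growth medium, with 5% horse serum, 20 ng/ml EGF, insulin, cholera toxin and hydrocortisone. The medium of the 2D groups was renewed without further additions. The 3D groups received medium with 2% Matrigel, which sets around the cells. Each culture was collected at 3 timepoints with 3 libraries each. Cells were harvested 3, 12 or 21 h after plating, and the timepoint numbers are tied to these hours through their order alone. The study's title asks how the dimensionality of the matrix acts on actin tension, the endoplasmic reticulum and spheroid phenotype.

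Matrix metalloproteinases are zinc enzymes that cut collagens, laminins and other matrix proteins, and the tissue inhibitors of metalloproteinases (TIMPs) bind and block them. In the plasminogen system, urokinase (PLAU) bound to its receptor (PLAUR) turns plasminogen into plasmin, a broad protease that also activates several secreted metalloproteinases. Serpins such as SERPINB2 inhibit urokinase. Breast epithelium uses both systems when its ducts branch and when it meets or remodels basement membrane.

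The cells carried the markers of their label in all 18 libraries, since each of 6 basal and 4 general epithelial markers had at least 450 raw counts. Of 6 fibroblast markers COL3A1 was at 0 counts everywhere, COL1A2 at 0 to 4, PDGFRB at 2 to 31 and LUM at 0 to 54. COL1A1 had 115 to 511 and DCN 7252 to 22868. PTPRC and LYZ of the 5 leukocyte markers had 0 to 2 counts, while CD68 had 340 to 1482, CD14 397 to 1486 and CSF1R 121 to 913. Of the 4 endothelial ones VWF had 0 to 6, CDH5 0 to 15, PECAM1 28 to 135 and KDR 22 to 343. CPM stands for a count relative to the scaled total of its library. The summed CPM of the 4 epithelial markers was 1060 to 1740 at timepoint 1 of 2D and 512 to 664 at timepoint 3 of 3D. The leukocyte list, carried by CD68, CD14 and CSF1R, ran from 17.2 to 24 CPM at timepoint 1 of 3D and from 35.7 to 48.8 at timepoint 2 of 2D. The endothelial list ran from 4.08 to 6.97 CPM at timepoint 1 of 2D and from 1.42 to 1.52 CPM at timepoint 2 of 3D. The part of these shifts in the results that follow was not tested, and in bulk RNA fewer cells of a type and less RNA per cell cannot be told apart. Library totals in the file headers were 9.31 to 17.7 M reads, whereas the gene counts summed to 49.8 to 93.9 M.

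The tests used 17 libraries, because the labels of 2D timepoint 3 replicate 1 list the raw count table alone. The place of this library at timepoint 3 was read from scaled CPM. For 5 members (MMP9, MMP14, PLAU, PLAUR and TIMP1) the other 2D libraries of that timepoint did not overlap with the 3D libraries. For all 5 the library lay on the 3D side. For MMP9 the raw counts did overlap, at 6 and 12 in 2D and 4 to 7 in 3D. Among other genes of the system with groups apart the library lay on the 3D side for 7, on the 2D side for 5 and between them for 3. The share of all genes with groups apart was not determined, so these counts are not read as a result about the members. Results at timepoint 3 are given without it, and for PLAU, PLAUR, MMP14, TIMP1 and TIMP2 also with it where 2D at timepoint 3 was set against 3D or against timepoint 1.

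Of the 10 members, 5 had at least 5.78 CPM in every tested library: the membrane protease MMP14, the inhibitors TIMP1 and TIMP2, and PLAU and PLAUR. PLAU and PLAUR fell sharply after timepoint 1 in both cultures. TIMP1 rose with time in 3D. A gene passed the test where its adjusted p over all genes tested was under 0.05. No member passed the main test between 3D and 2D at any timepoint. That test does not pair libraries by replicate number. With such pairing TIMP1 passed at timepoint 2 (edgeR adjusted p = 0.00544). The 5 secreted metalloproteinases MMP1, MMP3, MMP9, MMP10 and MMP13 were near 0 in every library.

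**Figure D1:**
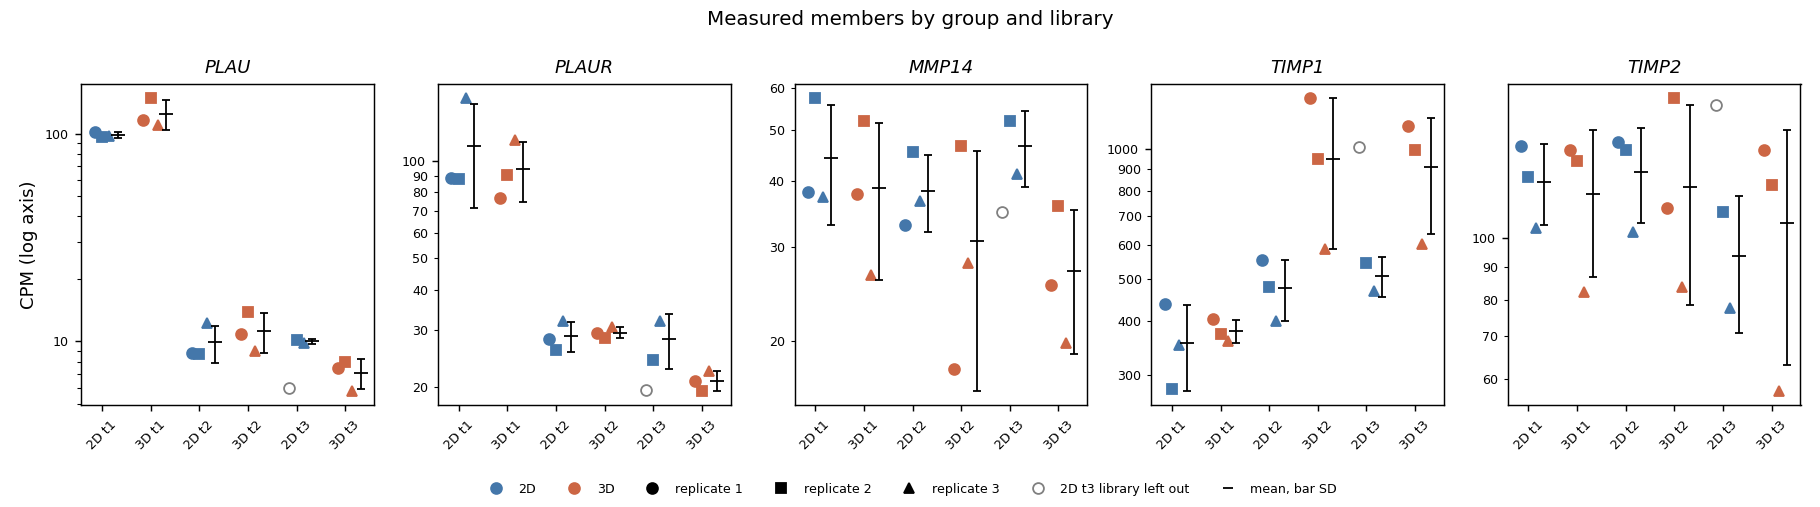
CPM (logarithmic axis, a separate scale for each gene) of the 5 well measured members in each library by group (t1 to t3, timepoints 1 to 3), with the replicate number as the symbol and horizontal and vertical bars for mean and SD; the open circle is the 2D timepoint 3 library left out of the tests. PLAU and PLAUR drop between timepoints 1 and 2 in both cultures. Among the tested libraries TIMP1 is highest in 3D at timepoints 2 and 3, and its open circle lies among the 3D libraries.

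PLAU encodes urokinase, the serine protease that cleaves plasminogen, and lies on the plus strand of chromosome 10 (73911132 to 73917494, hg38). At timepoint 1 its level was 102, 96.2 and 97.1 CPM in the 2D libraries of replicates 1, 2 and 3. In the 3D libraries it was 116, 148 and 110 CPM. At timepoint 2 it was 8.77, 8.72 and 12.2 CPM in 2D and 10.9, 13.9 and 8.99 CPM in 3D. All 3D libraries of timepoint 1 lay above the 2D libraries of that timepoint. Every library of timepoint 2 lay far below every library of timepoint 1, while the cultures overlapped at timepoint 2. At timepoint 3 the 2D libraries of replicates 2 and 3 had 10.2 and 9.81 CPM and the 3D libraries 7.46, 7.95 and 5.78 CPM. The 3D libraries there lay below both tested 2D libraries, and the 2D library left out, at 5.98 CPM, lay among them.

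In 2D, PLAU was 9.94-fold lower at timepoint 2 than at timepoint 1 (log2 fold change -3.31, SE 0.21, adjusted p = 5.11e-07, edgeR's quasi-likelihood test with Benjamini-Hochberg adjustment). In 3D it was 11.1-fold lower (log2 fold change -3.47, SE 0.21, edgeR adjusted p = 8.78e-08). By timepoint 3 it was 9.83-fold lower in 2D (adjusted p = 5.37e-06) and 17.6-fold lower in 3D (adjusted p = 1.55e-08, both edgeR). With the left-out library the 2D fold was 11.4. Libraries with the same replicate number bear the same date in their labels, so the drop was also taken within each number. At timepoint 2 it was -3.53, -3.46 and -2.99 in 2D and -3.41, -3.41 and -3.61 in 3D on the log2 scale. The drop was thus present in all 3 pairs of each culture.

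PLAUR encodes the membrane-anchored urokinase receptor, which holds the protease at the cell surface, and lies on the minus strand of chromosome 19 (43648580 to 43670547, hg38). At timepoint 1 it had 88.8, 87.8 and 156 CPM in 2D and 77, 90.2 and 116 CPM in 3D. At timepoint 2 it had 28.1, 25.9 and 32.1 CPM in 2D and 29.3, 28.3 and 30.6 CPM in 3D. At timepoint 3 the values were 24.2 and 32 CPM in 2D and 20.9, 19.4 and 22.4 CPM in 3D, with 19.5 CPM in the left-out 2D library. Timepoint 1 lay above both later timepoints without overlap in each culture, and the cultures overlapped at timepoints 1 and 2.

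PLAUR fell by 1.95 on the log2 scale between timepoints 1 and 2 in 2D (SE 0.22, edgeR adjusted p = 7.41e-05), which is 3.87-fold. In 3D it fell by 1.68 (SE 0.22, edgeR adjusted p = 0.000128). By timepoint 3 it was 3.94-fold lower in 2D (edgeR adjusted p = 0.000316) and 4.51-fold lower in 3D (edgeR adjusted p = 1.24e-05), and with the left-out library the 2D fold was 4.4. Within replicate numbers the drop to timepoint 2 was -1.66, -1.76 and -2.29 in 2D and -1.39, -1.67 and -1.92 in 3D. The receptor gene therefore fell in the same comparisons as the protease gene, with a smaller fold in each.

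Because these 2 genes fell together, the 250 bases before their starts are shown, with those of SERPINB2, a urokinase inhibitor gene that also fell, and of MMP10, which stayed near 0. The sequences are from RefSeq (GRCh38.p14), 5′ to 3′ on the gene's strand, and are placed by the start of the RefSeq entry. For PLAUR that start differs from the annotation used for the gene's position above, so its window lies inside the stated span of the gene, next to its 5′ end. The regions are PLAUR at chr19:43670170-43670419 (minus strand), PLAU at chr10:73910882-73911131 (plus strand), SERPINB2 at chr18:63887455-63887704 (plus strand) and MMP10 at chr11:102780629-102780878 (minus strand). Capitals mark the AP-1 letters TGANTCA, which are their own reverse complement, so that both strands are read at once.
PLAUR: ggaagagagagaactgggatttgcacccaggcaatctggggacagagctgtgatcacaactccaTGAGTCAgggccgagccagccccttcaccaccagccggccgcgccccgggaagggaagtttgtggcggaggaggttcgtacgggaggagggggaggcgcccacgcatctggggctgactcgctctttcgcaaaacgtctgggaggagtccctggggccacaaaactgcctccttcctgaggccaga
PLAU: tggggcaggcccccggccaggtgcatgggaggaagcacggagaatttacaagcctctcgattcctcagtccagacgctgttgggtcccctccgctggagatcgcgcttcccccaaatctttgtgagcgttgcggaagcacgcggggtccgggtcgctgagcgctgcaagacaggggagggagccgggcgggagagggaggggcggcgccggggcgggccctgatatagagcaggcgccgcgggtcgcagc
SERPINB2: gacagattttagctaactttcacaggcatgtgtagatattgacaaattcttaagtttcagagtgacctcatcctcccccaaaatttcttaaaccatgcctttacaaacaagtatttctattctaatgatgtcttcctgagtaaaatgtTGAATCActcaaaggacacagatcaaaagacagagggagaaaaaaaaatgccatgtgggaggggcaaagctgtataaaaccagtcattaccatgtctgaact
MMP10: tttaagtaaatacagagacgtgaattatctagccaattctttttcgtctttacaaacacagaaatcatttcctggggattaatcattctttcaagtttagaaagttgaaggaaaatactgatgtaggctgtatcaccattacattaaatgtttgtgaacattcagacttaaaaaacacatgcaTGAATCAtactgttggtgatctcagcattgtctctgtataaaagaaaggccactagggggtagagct
The AP-1 letters occurred once in PLAUR, 186 bases before the start of the RefSeq entry, once in SERPINB2, 102 bases before it, and once in MMP10, 67 bases before it. They occurred in neither of the 2 PLAU entries, nor in those of MMP14 and TIMP1. Of 35116 promoters of this length in the table, 6.57% held them. MMP10 and SERPINB2 also held the TATA box letters TATAAA, present in 10.7% of promoters. The ETS-type letters AGGAAG or their reverse complement, present in 28.7%, occurred in PLAUR, SERPINB2, TIMP1 and the PLAU entry shown, and in neither MMP10 nor MMP14. A match describes letters and not a bound site. Of the 10 members 5 had an entry, and MMP1, MMP3, MMP9, MMP13 and TIMP2 are named only.

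TIMP1 encodes a secreted inhibitor of most soluble metalloproteinases and lies on the plus strand of chromosome X (47582436 to 47586789, hg38). At timepoint 1 it had 437, 277 and 351 CPM in 2D and 403, 372 and 358 CPM in 3D, and the cultures overlapped. Timepoint 2 gave 553, 479 and 399 CPM in 2D and 1314, 953 and 587 CPM in 3D. At timepoint 3 it had 546 and 470 CPM in 2D and 1131, 997 and 604 CPM in 3D. Every 3D library of timepoints 2 and 3 lay above the tested 2D libraries of its timepoint, and replicate 3 was the lowest 3D library at all timepoints. The 2D library left out had 1013 CPM and lay among the 3D libraries.

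In 3D, TIMP1 rose 2.52-fold from timepoint 1 to timepoint 2 (log2 fold change 1.33, SE 0.27, edgeR adjusted p = 0.0048). It stood 2.41-fold above timepoint 1 at timepoint 3 (log2 fold change 1.27, SE 0.27, edgeR adjusted p = 0.00669). Within replicates 1, 2 and 3 the rise to timepoint 2 was 1.7, 1.35 and 0.71 on the log2 scale. In 2D the differences from timepoint 1 were 0.43 (SE 0.27, edgeR adjusted p = 0.447) and 0.52 (SE 0.3, edgeR adjusted p = 0.369), neither of which passed. With the left-out library the latter was 0.93 (edgeR adjusted p = 0.103).

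Between the cultures, TIMP1 was 1.99-fold higher in 3D at timepoint 2, a difference that did not pass (log2 fold change 1, SE 0.27, edgeR adjusted p = 0.0694). With the replicate number as a block, which compares libraries of one date, it passed (log2 fold change 0.95, edgeR adjusted p = 0.00544). It also passed with DESeq2 (0.99, adjusted p = 0.0101) and with edgeR on all genes unfiltered (adjusted p = 0.000435). The unfiltered fit also called 49 genes at timepoint 1, where no other setting called any. TIMP1 did not pass at timepoint 2 with RLE or upper-quartile scaling, a stricter filter or limma-voom. Nor did it pass with all 18 libraries (edgeR adjusted p = 0.108). Within replicates 1, 2 and 3 the difference was 1.25, 0.99 and 0.56, higher in 3D in 3 of 3 pairs. In the authors' deposited table for timepoint 2 the log2 fold change of TIMP1 was 0.88, with an adjusted p of 0.076. At timepoint 3 the difference was 0.84 (SE 0.31, edgeR adjusted p = 0.164), and with the left-out library it was 0.43 (edgeR adjusted p = 0.594). At timepoint 3, edgeR on all genes unfiltered gave TIMP1 an adjusted p of 0.0201. The culture difference at timepoint 2 minus that at timepoint 1 was 0.91 (SE 0.38, edgeR adjusted p = 0.566), so a change of the culture effect with time was not shown.

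TIMP2 encodes the inhibitor that also helps MMP14 to activate progelatinase A, and lies on the minus strand of chromosome 17 (78852977 to 78925387, hg38). Its group means ran from 93.9 ± 23 CPM (SD, n = 2) in 2D at timepoint 3 to 128 ± 21.8 CPM (SD, n = 3) in 2D at timepoint 2. The left-out 2D library had 163 CPM, above the other 2D libraries of timepoint 3. No comparison passed, and its log2 differences lay between -0.39 and 0.17 over the cultures and times. With the left-out library the difference of 2D timepoint 3 from timepoint 1 went from -0.39 to -0.08, and that of 3D from 2D at timepoint 3 from 0.17 to -0.14. Replicate 3 was the lowest library of every group, with 57.4 CPM in 3D at timepoint 3 against 138 and 122 CPM in replicates 1 and 2.

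MMP14 encodes membrane type 1 metalloproteinase, which cuts collagen at the cell surface and activates other metalloproteinases, and lies on the plus strand of chromosome 14 (22836585 to 22847758, hg38). At timepoint 1 it had 38.2, 57.3 and 37.3 CPM in 2D and 37.8, 52 and 26.6 CPM in 3D. The values of timepoint 2 were 33.1, 45.4 and 36.6 CPM in 2D and 17.7, 46.7 and 28 CPM in 3D. At timepoint 3 it had 51.9 and 41.2 CPM in 2D and 25.5, 35.9 and 19.8 CPM in 3D. Replicate 2 was the highest library of every group, and the cultures were apart at timepoint 3 alone, where the left-out 2D library had 34.9 CPM, inside the 3D range.

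The MMP14 difference at timepoint 3, 3D minus 2D, was -0.78 (SE 0.36, edgeR adjusted p = 0.246), and within replicates 2 and 3 it was -0.53 and -1.06. With the left-out library it was -0.66 (edgeR adjusted p = 0.478). It did not pass, also not with the replicate block (-0.71, edgeR adjusted p = 0.0546), but it did with edgeR on all genes unfiltered (adjusted p = 0.0271). At timepoints 1 and 2 the differences were -0.19 and -0.32. The time comparisons of MMP14 gave -0.21 and 0.07 in 2D and -0.33 and -0.52 in 3D, none of which passed, and the value of 0.07 became -0.05 with the left-out library.

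**Figure D2:**
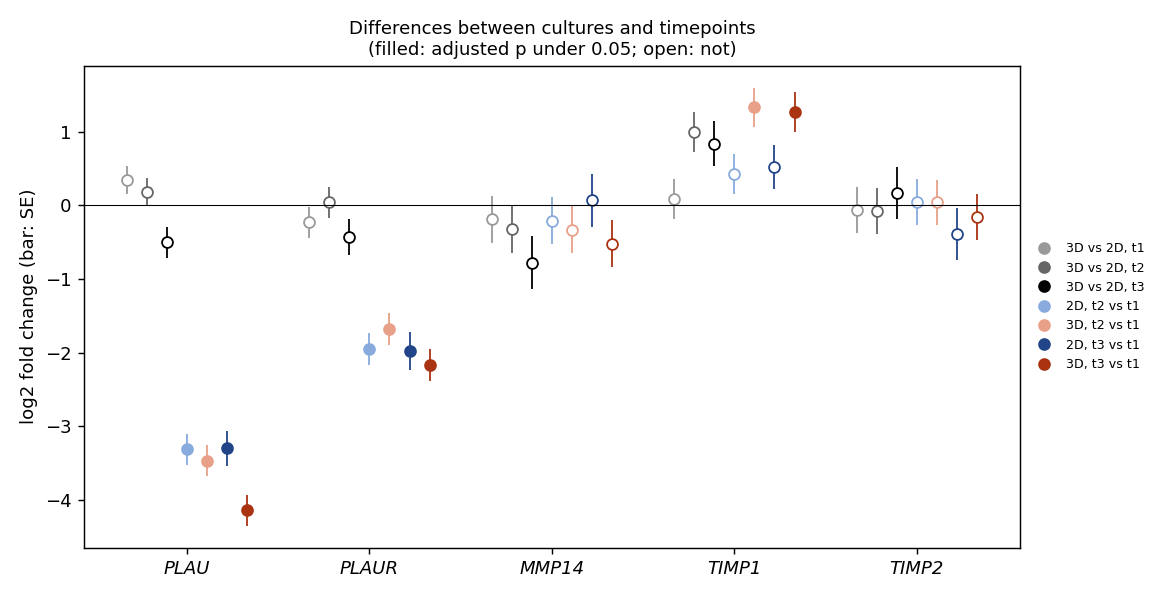
Log2 fold changes (vertical axis) with their SE as bars for the 5 well measured members, with one point for each of 7 comparisons; filled points had an edgeR adjusted p under 0.05. All time points of PLAU and PLAUR are filled and below 0, those of TIMP1 are filled in 3D alone, and no point for 3D against 2D is filled.

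Counted over the members, 7 of the 10 passed the filter on low counts (edgeR's filterByExpr with its minimum of 10) and were tested, MMP9 and MMP13 among them. In 2D, 0 rose and 2 fell (PLAU and PLAUR) at timepoint 2, where 2.66% of all 18592 genes tested rose and 3.22% fell. At timepoint 3 in 2D again 0 rose and the same 2 fell, against 2.5% and 2.36% of all genes. In 3D, 1 rose (TIMP1) and 2 fell (PLAU and PLAUR) at timepoint 2, against 7.31% and 7.76% of all genes, and the same 3 were called at timepoint 3, against 4.07% and 6.95%. Between the cultures, edgeR called 0 members at timepoint 1 (0% of all genes), 0 at timepoint 2 (1.49%) and 0 at timepoint 3 (1.5%). At an unadjusted p under 0.05 there were 0, 1 (TIMP1) and 3 (TIMP1, PLAU and MMP14), against 244, 3733 and 3555 of all 18592 genes. DESeq2 called 0, 1 and 0 members, where it called 0%, 7.19% and 5.49% of all genes, and limma-voom called 0 members in each, with 0%, 2.19% and 1.33% of all genes. With the replicate block edgeR called 0 members at timepoint 1, 1 at timepoint 2 (TIMP1) and 0 at timepoint 3, against 0%, 15.9% and 9.75% of all genes. Without a filter on low counts it called 1 member at timepoint 2 (TIMP1) and 2 at timepoint 3 (TIMP1 and MMP14), against 4.41% and 4.62% of all genes.

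The change of the culture difference between timepoint 1 and timepoint 2 called 0 members, against 0% of all genes with edgeR, 0.221% with DESeq2 and 0% with limma-voom. Between timepoints 1 and 3 it also called 0 members, against 0.183%, 0.785% and 0.134% of all genes. At an unadjusted p under 0.05 edgeR had 1 member in each, TIMP1 and PLAU respectively, against 1624 and 1538 of all 18592 genes. Neither urokinase nor its receptor differed between the cultures beyond the test. For PLAU the log2 differences, 3D minus 2D, were 0.34 (SE 0.19) at timepoint 1, 0.18 (SE 0.19) at timepoint 2 and -0.5 (SE 0.21) at timepoint 3, with edgeR adjusted p of 1, 0.624 and 0.216. With the left-out library the last was -0.29. For PLAUR they were -0.23, 0.04 and -0.43, and the last was -0.27 with the left-out library. The PLAU difference at timepoint 3 minus that at timepoint 1 was -0.84 (SE 0.28, edgeR adjusted p = 0.447). These comparisons share libraries with the time comparisons and are not independent of them.

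The interstitial collagenases MMP1 and MMP13 cut fibrillar collagen, the stromelysins MMP3 and MMP10 cut laminin and proteoglycans, and MMP9 is gelatinase B. MMP1 (chromosome 11, 102789919 to 102798160, hg38, minus strand) had 24 raw counts in all 18 libraries together. Its counts in replicates 1, 2 and 3 were 0, 0 and 0 in 2D and 1, 1 and 0 in 3D at timepoint 1. At timepoint 2 they were 2, 1 and 2 in 2D and 6, 3 and 1 in 3D. At timepoint 3 they were 5, 0 and 0 in 2D, of which the 5 belonged to the left-out library, and 2, 0 and 0 in 3D. MMP1 thus never exceeded 6 counts, and 8 libraries had none.

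MMP3 (chromosome 11, 102835801 to 102843609, hg38, minus strand) had 13 counts in all and was at 0 in 11 of 18 libraries. In 2D it had 0, 1 and 0 counts at timepoint 1, 0, 0 and 6 at timepoint 2 and 2, 0 and 0 at timepoint 3. In 3D it had 0, 0 and 0, then 1, 0 and 1, and again 1, 0 and 1. A single 2D library of timepoint 2 thus held 6 of its 13 counts.

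MMP10 (chromosome 11, 102770502 to 102780628, hg38, minus strand) had 31 counts in all. In 2D it had 0, 0 and 0 counts at timepoint 1, 2, 2 and 2 at timepoint 2 and 2, 1 and 1 at timepoint 3. In 3D it had 1, 2 and 0, then 4, 1 and 5, then 5, 1 and 2. All groups but 2D at timepoint 1 held a count of MMP10, and none of its libraries passed 5. Fitted without the filter, MMP1, MMP3 and MMP10 were called in no comparison, and their smallest adjusted p was 0.317 (edgeR, MMP10, timepoint 2 against timepoint 1 in 2D).

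MMP13 (chromosome 11, 102942995 to 102955732, hg38, minus strand) had 64 counts in all, most of them at timepoint 1. There it had 6, 14 and 5 counts in 2D and 5, 17 and 0 in 3D. At timepoint 2 it had 4, 0 and 0 in 2D and 0, 3 and 0 in 3D, and at timepoint 3 it had 1, 0 and 4 in 2D and 3, 0 and 2 in 3D. Replicate 2 was highest in both cultures at timepoint 1. The 3D libraries of timepoint 1 overlapped those of the later timepoints, and no comparison of MMP13 passed (smallest edgeR adjusted p = 0.291).

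MMP9 (chromosome 20, 46008908 to 46016561, hg38, plus strand) had 126 counts in all, the most of these 5 genes. At timepoint 1 it had 3, 0 and 2 counts in 2D and 0, 9 and 8 in 3D. Timepoint 2 gave 6, 7 and 14 in 2D and 15, 8 and 14 in 3D, and at timepoint 3 it had 7, 6 and 12 in 2D and 7, 4 and 4 in 3D. In 2D all libraries of timepoint 2 lay above those of timepoint 1, and in 3D they overlapped. No comparison of MMP9 passed, the smallest edgeR adjusted p being 0.168. At an unadjusted p under 0.05 MMP9 had 2 comparisons, the 2D timepoints 2 and 3 against timepoint 1. At 0 to 17 counts per library no fold is given for these 5 genes.

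**Figure D3:**
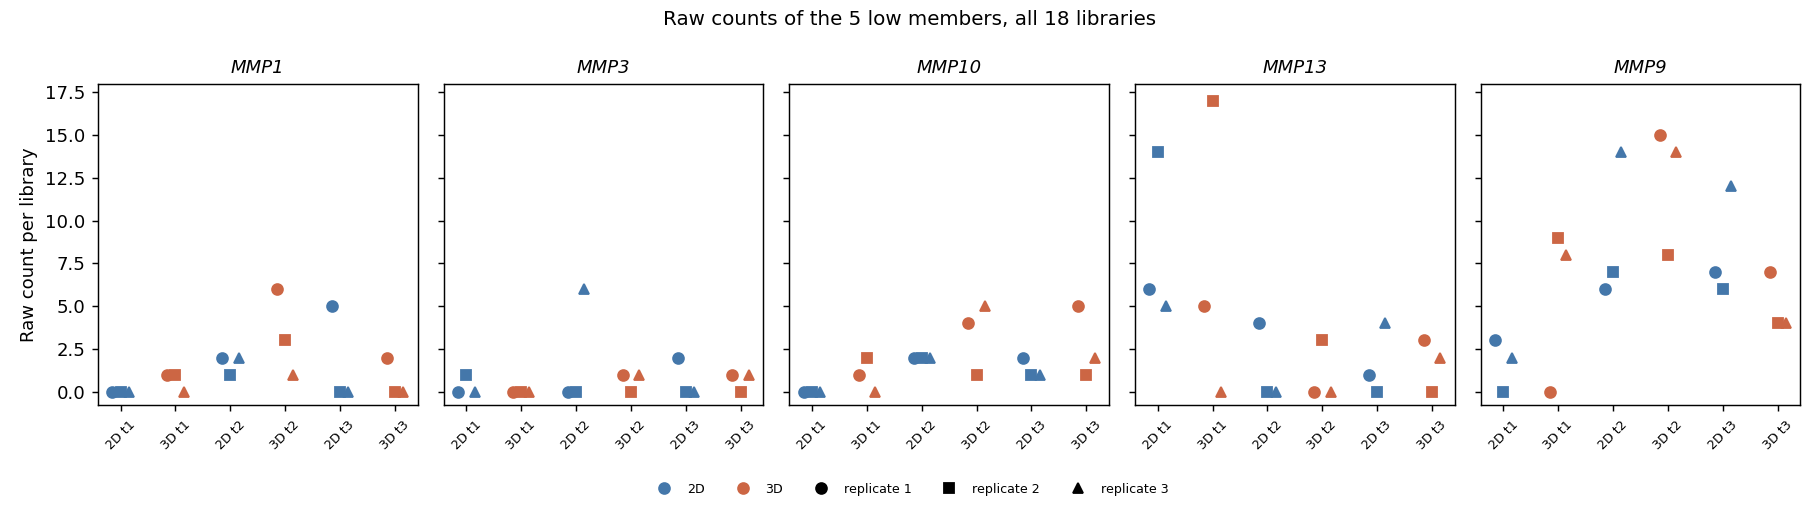
Raw counts (vertical axis, one scale for all) of MMP1, MMP3, MMP10, MMP13 and MMP9 in each of the 18 libraries by group (t1 to t3, timepoints 1 to 3), with the replicate number as the symbol. No library holds more than 17 counts of any of the 5 genes.

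MMP1, MMP3, MMP10 and MMP13 lie in a cluster of 9 metalloproteinase genes on chromosome 11 (102520508 to 102955732, hg38), which spans 435 kb. Of the 9, MMP8, MMP20 and MMP27 had no count in any library. The 8 genes other than MMP7 had 135 counts together over all 18 libraries. MMP7 (matrilysin) and MMP13 were the 2 that entered the tests.

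The other genes of both systems were taken from a list of 45, of which 35 passed the filter on low counts. PLG, the gene of plasminogen itself, was among the 10 that did not, and it had no count in any library. In 2D, 1 of the 35 rose (MMP28) and 2 fell (SERPINB2 and PLAT) at timepoint 2, against 2.66% and 3.22% of all genes. At timepoint 3 in 2D, 1 rose (MMP28) and 1 fell (SERPINB2), against 2.5% and 2.36%. In 3D, 6 rose and 3 fell at timepoint 2, against 7.31% and 7.76%. SERPINB2, PLAT and ST14 fell there and S100A10, MMP11, PLGRKT, MMP28, SERPINE2 and ANXA2 rose. At timepoint 3 in 3D, 0 rose and 4 fell (SERPINB2, ST14, PLAT and MMP7), against 4.07% and 6.95%. Between the cultures, 0 passed at timepoint 1 (0% of all genes), and MMP7 alone, lower in 3D, passed at timepoints 2 (1.49%) and 3 (1.5%). The median log2 fold change of the 35 genes lay between -0.13 and 0.03 over the 7 comparisons, and that of all genes between -0.03 and 0.04. With the replicate block 4 were higher and 6 lower in 3D than in 2D at timepoint 2 (15.9% of all genes called), 3 and 7 at timepoint 3 (9.75%), and 0 and 0 at timepoint 1 (0%). In 2D the block gave 6 that rose and 3 that fell at timepoint 2 (13.7% of all genes called) and 3 and 5 at timepoint 3 (10.5%). In 3D it gave 9 and 4 (28.4%), then 6 and 9 (23.9%, all edgeR).

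SERPINB2 encodes plasminogen activator inhibitor type 2, which blocks urokinase. It had 16.9, 16.6 and 59 CPM in 2D and 11.1, 12.5 and 46.9 CPM in 3D at timepoint 1. The values of timepoint 2 were 2.05, 1.62 and 2.54 CPM in 2D and 0.866, 0.41 and 0.869 CPM in 3D. Timepoint 1 did not overlap with timepoint 2 in either culture, and replicate 3 was highest at timepoint 1. The fall was -3.9 (SE 0.66, edgeR adjusted p = 0.00227) in 2D and -5.01 (SE 0.72, edgeR adjusted p = 0.00029) in 3D on the log2 scale. By timepoint 3 it was -4.55 (SE 0.82, edgeR adjusted p = 0.00465) in 2D and -5.93 (SE 0.76, edgeR adjusted p = 9.34e-05) in 3D. The 2D call at timepoint 3 was lost without 2D timepoint 3 replicate 2 (adjusted p = 0.0993) or replicate 3 (adjusted p = 0.0545, both edgeR). At timepoint 2 SERPINB2 was lower in 3D by a log2 difference of -1.51, which passed with the replicate block (edgeR adjusted p = 0.211 without and 0.0167 with it). At timepoint 3 it was -1.77, with 0.222 and 0.0383. Raw counts of SERPINB2 in 3D at timepoint 3 were 26, 6 and 48 in replicates 1, 2 and 3. The left-out 2D library had 0.504 CPM, inside the 3D range of 0.1 to 0.672 CPM. SERPINB10 lies over SERPINB2 on the same strand, with 0 to 668 raw counts.

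PLAT encodes tissue plasminogen activator, the other activator of plasminogen. It had 134, 152 and 145 CPM in 2D and 144, 150 and 104 CPM in 3D at timepoint 1. At timepoint 2 it had 71.6, 81.9 and 70.2 CPM in 2D and 31, 70.6 and 51.2 CPM in 3D, below timepoint 1 without overlap in both cultures. In 3D PLAT was 2.6-fold lower at timepoint 2 and 2.71-fold lower at timepoint 3 than at timepoint 1 (edgeR adjusted p = 0.00183 and 0.00131). In 2D the fall was 1.93-fold at timepoint 2 (edgeR adjusted p = 0.0315), a call lost when any 1 of the 6 libraries was left out and, with header totals as library sizes, at an adjusted p of 0.0634. The 2D difference at timepoint 3 was -0.82 (edgeR adjusted p = 0.112), and -0.88 (edgeR adjusted p = 0.0422) with the left-out library.

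ST14 encodes matriptase, a membrane serine protease that can activate pro-urokinase. It had 64.2, 88.3 and 68.4 CPM in 3D at timepoint 1, 18.1, 39.6 and 34.8 CPM at timepoint 2 and 22.1, 30 and 29.8 CPM at timepoint 3. In 3D it was 2.39-fold lower at timepoint 2 and 2.7-fold lower at timepoint 3 than at timepoint 1 (edgeR adjusted p = 0.00281 and 0.00107). In 2D it also lay lower later without overlap, though neither difference passed. There it had 65 to 87 CPM at timepoint 1, 43.6 to 53.7 CPM at timepoint 2 and 47.9 and 50.1 CPM at timepoint 3. The left-out 2D library of timepoint 3 had 27.2 CPM of ST14, inside the 3D range. S100A10, a cell surface plasminogen binding protein that pairs with ANXA2, had 448, 343 and 697 CPM in 3D at timepoint 1 and 1130, 928 and 1085 CPM at timepoint 2. It rose 2.11-fold (edgeR adjusted p = 0.0104), and the call was lost without 3D timepoint 1 replicate 2 (edgeR adjusted p = 0.0559) or with the 3D groups fitted alone (0.0576).

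MMP28 encodes epilysin, a metalloproteinase of epithelia. In 2D it had 17.7, 17.3 and 28.1 CPM at timepoint 1, 51.3, 73.4 and 62.1 CPM at timepoint 2, and 73.8 and 67 CPM at timepoint 3. All tested libraries of the later timepoints lay above those of timepoint 1. MMP28 rose by 1.57 (SE 0.26, edgeR adjusted p = 0.00213) and 1.74 (SE 0.29, edgeR adjusted p = 0.00213) on the log2 scale, and with the left-out library the latter was 1.49 (edgeR adjusted p = 0.00718). In 3D the rise was 0.96 at timepoint 2 (edgeR adjusted p = 0.022), and the difference at timepoint 3, 0.83, passed with the replicate block (edgeR adjusted p = 0.0517 without and 0.00283 with it).

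MMP7 encodes matrilysin, a small secreted protease. It had 1.51, 1.25 and 2.05 CPM in 2D and 0.712, 0.82 and 0.553 CPM in 3D at timepoint 2, and 1.04 and 1.43 CPM in 2D and 0.487, 0.549 and 0.362 CPM in 3D at timepoint 3. All 3D libraries lay below the tested 2D libraries. The difference was -1.21 (SE 0.28, edgeR adjusted p = 0.046) and -1.41 (SE 0.32, edgeR adjusted p = 0.0366). In the authors' deposited tables it was -1.23 and -1.45, with adjusted p of 0.0306 and 0.0334. Both calls were lost with all 18 libraries (edgeR adjusted p = 0.105 and 0.422) and with the compared groups fitted alone (0.0577 and 0.092), and that at timepoint 3 also with limma-voom (0.0509). The call at timepoint 2 was lost without any 1 of its 6 libraries, and of the 5 at timepoint 3 it was kept without 3D replicate 2 alone. In 3D MMP7 also fell with time, by 1.07 at timepoint 3 (edgeR adjusted p = 0.0257), a call lost without 3D timepoint 1 replicate 1 (0.104) or 3D timepoint 3 replicate 1 (0.0633) or 3 (0.117). It was also lost with no filter (0.0666), with all 18 libraries (0.0866) and with the groups alone (0.0962).

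**Figure D4:**
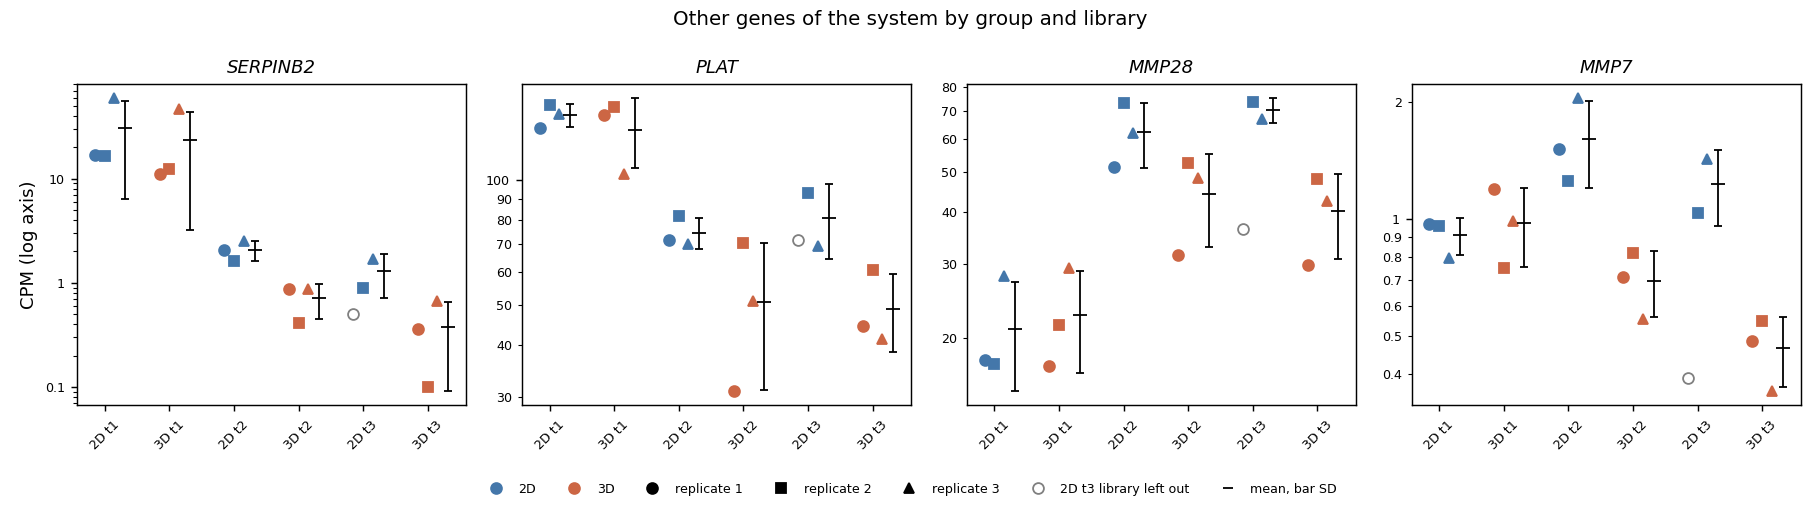
CPM (logarithmic axis, a separate scale for each gene) of SERPINB2, PLAT, MMP28 and MMP7 in each library by group (t1 to t3, timepoints 1 to 3), with horizontal and vertical bars for mean and SD and the left-out 2D library as an open circle. SERPINB2 and PLAT are highest at timepoint 1, and MMP28 is higher at timepoints 2 and 3 than at timepoint 1. The group means of MMP7 are lowest in 3D at timepoints 2 and 3. Single MMP7 libraries of 3D at timepoint 2 overlap timepoint 1, and its open circle lies within the 3D range of timepoint 3.

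Across the 17 libraries log2 CPM of PLAU and PLAUR had a Pearson correlation of 0.96, and TIMP1 had -0.67 with PLAU and -0.72 with PLAUR. These libraries share the 3 timepoints, over which all 3 genes shifted. The gene most like PLAU was C10orf55 (0.989), which lies over PLAU on the opposite strand. The counting strand was not given, so whether these genes share reads is not known. MYADM (0.986) and CLCF1 (0.98) followed. The genes most like PLAUR were PDLIM5 (0.986), USP11 (0.977) and C1orf74 (0.977), and those most like TIMP1 were NOX5 (0.929), SAMD11 (0.928) and PDPN (0.923). Raw counts of SYN1, opposite TIMP1, were 12 to 167, and C10orf55 had 60 to 1754. TIMP2 is overlapped on its own strand by CEP295NL, with 74 to 190 raw counts. CPM values are not compared between genes.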

How the data were processed

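Poly-A RNA of MCF10A cells was read as 50 bp single ends. The submitters' processing notes name STAR 2.7.1a, HOMER, edgeR, limma and hg38 without role or order, while annotation, counting strand and filters were not given in the sources used here. Deposited counts are whole numbers per gene with no normalisation by the authors, and they add up to between 4.73 and 5.73 times the totals that the deposited file headers state. The sums are therefore not read as depth, no counting intervals are given, and CPM is not compared between genes. The deposited log2 CPM table, scaled by the authors, was used for its header totals. The authors' deposited tables give log2 fold changes with p-values, and their test scores were not used. No sample column was unused (0).

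Counts were scaled by TMM, filtered by filterByExpr and compared by edgeR 4.0.16 under R 4.3.3 (quasi-likelihood fit and F test) over 18592 genes in 17 libraries, with a Benjamini-Hochberg adjusted p under 0.05 as the call. The common dispersion was 0.0686. Standard errors were derived from the fold change and its F value. Group CPM values are means with SD. The labels do not say whether libraries come from separate cultures, so a p-value measures only the spread between these libraries, which may be technical. Replicate numbers carry a date shared across groups and so pair libraries. Libraries of one number deviated from their group means with a mean correlation of 0.209 (-0.0405 to 0.513, 40 pairs), against -0.104 for different numbers.

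The members, the wider list and the markers were chosen with earlier results of these data known. Named were all members, from the wider list up to 4 called genes with the smallest p per comparison, and for each called member the 3 genes with the highest correlation. MMP11, PLGRKT, SERPINE2 and ANXA2 were named to complete a count, and MMP28 in 3D was followed from its 2D result, after their values were seen. One withheld item is not reported here. Alternatives were RLE and upper-quartile scaling, no filter, a filter of 50 counts in 3 libraries, DESeq2 1.42.0, limma-voom (limma 3.58.1), all 18 libraries, the groups compared alone, the replicate block and leaving out each library. Added after seeing the data were counts divided by GENCODE transcripts, header totals as library sizes, and leaving out both timepoint 1 libraries of replicate 2.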

Additional observations from a re-analysis of the deposited data

Results flagged for a closer look

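The main comparisons were fitted without the library labelled 2D timepoint 3 replicate 1, and the alternative with all 18 libraries included it. For this library 2 genes, TIMP1 and MMP28, are given here as examples. Their level in it lay outside the other 2D libraries of that timepoint and inside the 3D range. Among genes whose other 2D libraries did not overlap with 3D, the same held for PLAU, MMP14, MMP9, MMP7, MMP15, SERPINB2, ST14, LRP1 and CAV1. For non-member genes with groups apart, the library lay on the 2D side for 5 and between the groups for 3. TIMP1 had 1013 CPM in it, against 472 to 549 CPM in the other 2D libraries and 606 to 1133 CPM in 3D, all scaled with the 18 libraries together. MMP28 had 36.5 CPM, against 67.3 to 74.2 CPM in the other 2D libraries and 30 to 48.4 CPM in 3D. The cause was not tested.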

How the results depend on the processing

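The calls of PLAU and PLAUR in all 4 time comparisons and of TIMP1 in both 3D time comparisons kept direction and threshold in all 178 pairs of a result and an alternative. Leaving out single libraries, the log2 fold changes were -3.49 to -3.23 and -3.33 to -3.27 for PLAU in 2D at timepoints 2 and 3, and -3.65 to -3.33 and -4.23 to -4 in 3D. For PLAUR they were -2.09 to -1.61 and -2.19 to -1.65 in 2D and -1.81 to -1.51 and -2.3 to -2 in 3D, and for TIMP1 in 3D 1.03 to 1.57 and 1.08 to 1.49. The count of members called between the cultures at timepoint 2 went from 0 to 1 with no filter, with DESeq2 and with the replicate block, and at timepoint 3 from 0 to 2 with no filter. The replicate block changed no other call of a member. Over all genes, the count called ranged with the alternatives from 0 to 2949 between the cultures at timepoint 2 (277 in the test reported) and from 0 to 1813 at timepoint 3 (278), the highest with the block, and from 0 to 49 at timepoint 1 (0). For time it ranged from 618 to 2539 (1092) and from 196 to 1954 (903) in 2D, and from 1132 to 5279 (2801) and from 1131 to 4447 (2049) in 3D. For the change of the culture difference it ranged from 0 to 281 (0) and from 0 to 479 (34).

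Among differences that did not pass, 36 values changed sign under an alternative, 5 came to pass and 495 did neither. Between the cultures at timepoint 1, leaving out libraries gave -0.46 to 0.04 for MMP14, -0.41 to 0.09 for PLAUR, -0.06 to 0.27 for TIMP1 and -0.19 to 0.14 for TIMP2, and TIMP1 had -0.05 without both timepoint 1 libraries of replicate 2. At timepoint 2 PLAU had -0.02 with header totals and -0.01 to 0.36 leaving out libraries, and PLAUR -0.01 with the stricter filter, -0.16 with header totals and -0.03 to 0.12 leaving out libraries. TIMP2 had -0.4 to 0.11 there, and at timepoint 3 -0.14 with all 18 libraries and -0.07 to 0.47 leaving out libraries. In 2D, MMP14 at timepoint 2 had 0.02 without both timepoint 1 libraries of replicate 2 and -0.34 to 0.02 leaving out libraries. At timepoint 3 it had -0.05 with all 18 libraries, -0.01 with the replicate block and -0.11 to 0.3 leaving out libraries. TIMP2 in 2D at timepoint 2 had -0.05 to 0.19. TIMP2 in 3D at timepoint 2 had -0.03 with the stricter filter, 0 with the groups alone, -0.1 with header totals and -0.27 to 0.24 leaving out libraries, and at timepoint 3 -0.4 to 0.14. The change of the PLAU culture difference at timepoint 2 was 0 without both timepoint 1 libraries of replicate 2 and -0.35 to 0.02 leaving out libraries. The cause of these sign changes was not tested. Header totals moved the median log2 fold change of all genes to between -0.23 and 0.09. Where 1 of the 2 tested 2D libraries of timepoint 3 was left out, the other was assumed to vary like the other groups. Low counts limit MMP1, MMP3, MMP9, MMP10 and MMP13, for which no fold is given.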
